A study of Mus musculus with 7 samples.

Results

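Epiblast stem cells (EpiSCs) of the mouse, in 6 lines named C1a1, T9, E5, E3, OG2.2 and OG2.1, were compared with the mouse embryonic stem cell (ESC) line R1, gene family by gene family. Genes entered the comparison if a probe was above the array's own background, at a detection p under 0.01, on at least 1 of the 7 arrays. Of 16593 genes with a probe on the array, 9213 did so. The study hybridised biotinylated cRNA of each line to 1 Illumina bead array, in 1 colour, so each line has 1 array. Levels are normalized log2 intensities, on which a difference of 1 is a doubling, and differences are the EpiSC mean minus the R1 value. The labels give the cell type and line name, and no strain, culture medium, feeder layer or passage. R1 was the only ESC line, so cell type, line, culture and array cannot be told apart in any difference reported here. In bulk RNA, fewer cells of a type and less RNA per cell cannot be told apart either.

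EpiSCs are derived from the epiblast after implantation and grow as flat epithelial colonies that depend on activin and FGF. ESCs resemble the blastocyst's epiblast, grow as domed colonies and are maintained with LIF, which signals through STAT3. Both are pluripotent, and the switch between them is known for changes in adhesion, energy metabolism and silencing of germline genes.

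Median signals ran from 123 to 131 in the EpiSC lines, against 126 in R1. Between 10642 and 11574 of 25697 probes were above background in the EpiSC lines, against 10670 in R1. Each EpiSC line correlated with R1 across the 9213 genes at r = 0.844 to 0.872, as a description, with genes that are not independent. The labelled cell types were checked with marker lists. Of 19 naive pluripotency markers tested, 13 were lower and 1 higher in the EpiSC lines, with a list median of -3.87. Of 14 postimplantation epiblast markers, 4 were higher and 1 lower (Epha2). Of 20 germ cell markers on the array 9 were tested, and all 9 were lower. As 8 of these 9 were above background in R1 alone, they entered the test through R1, which favours that direction.

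Across all genes tested, 654 were higher (7.1%) and 747 lower (8.11%) in the 6 EpiSC lines relative to R1, 15.2% in all, at a limma adjusted p under 0.05. The spread in this test came from the 6 EpiSC lines, and the R1 array was assumed to vary as they do. The median difference over all genes was 0.05, with 4857 positive and 4356 negative differences. In 29.7% of genes all 6 EpiSC lines lay above R1, and in 26.1% all 6 lay below. Lists of genes below are read against these shares. Of the 747 lower genes, 339 were above background in R1 and all 6 EpiSC lines, 120 in R1 and 1 to 5 lines, and 288 were among the 348 genes above background in R1 and in no EpiSC line. Of the 654 higher genes, 397 were above background on all 7 arrays, and 243 were among the 420 genes above background in all 6 EpiSC lines and not in R1. Such genes entered the test through the group in which they were high, which favours that direction, and for them a fold is given as a lower bound, against the lowest signal among probes above background or the dim probe's own, whichever is higher. The fitted difference beside such a bound rests on a level that was not above background. For genes of R1 alone, the standard error and adjusted p rest on the spread of EpiSC levels that were not above background. The median standard deviation over the EpiSC lines was 0.18 for them, against 0.29 for genes above background on all 7 arrays. How much R1 itself varies at its higher level was not measured, so their small p-values do not cover it. List medians are also given with such genes at their bounds where there are any. A filter for detection on at least 2 arrays leaves the genes of R1 alone untested and so lowers many of the lower counts below. The plot of shares called sets the families side by side.

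**Figure D1:**
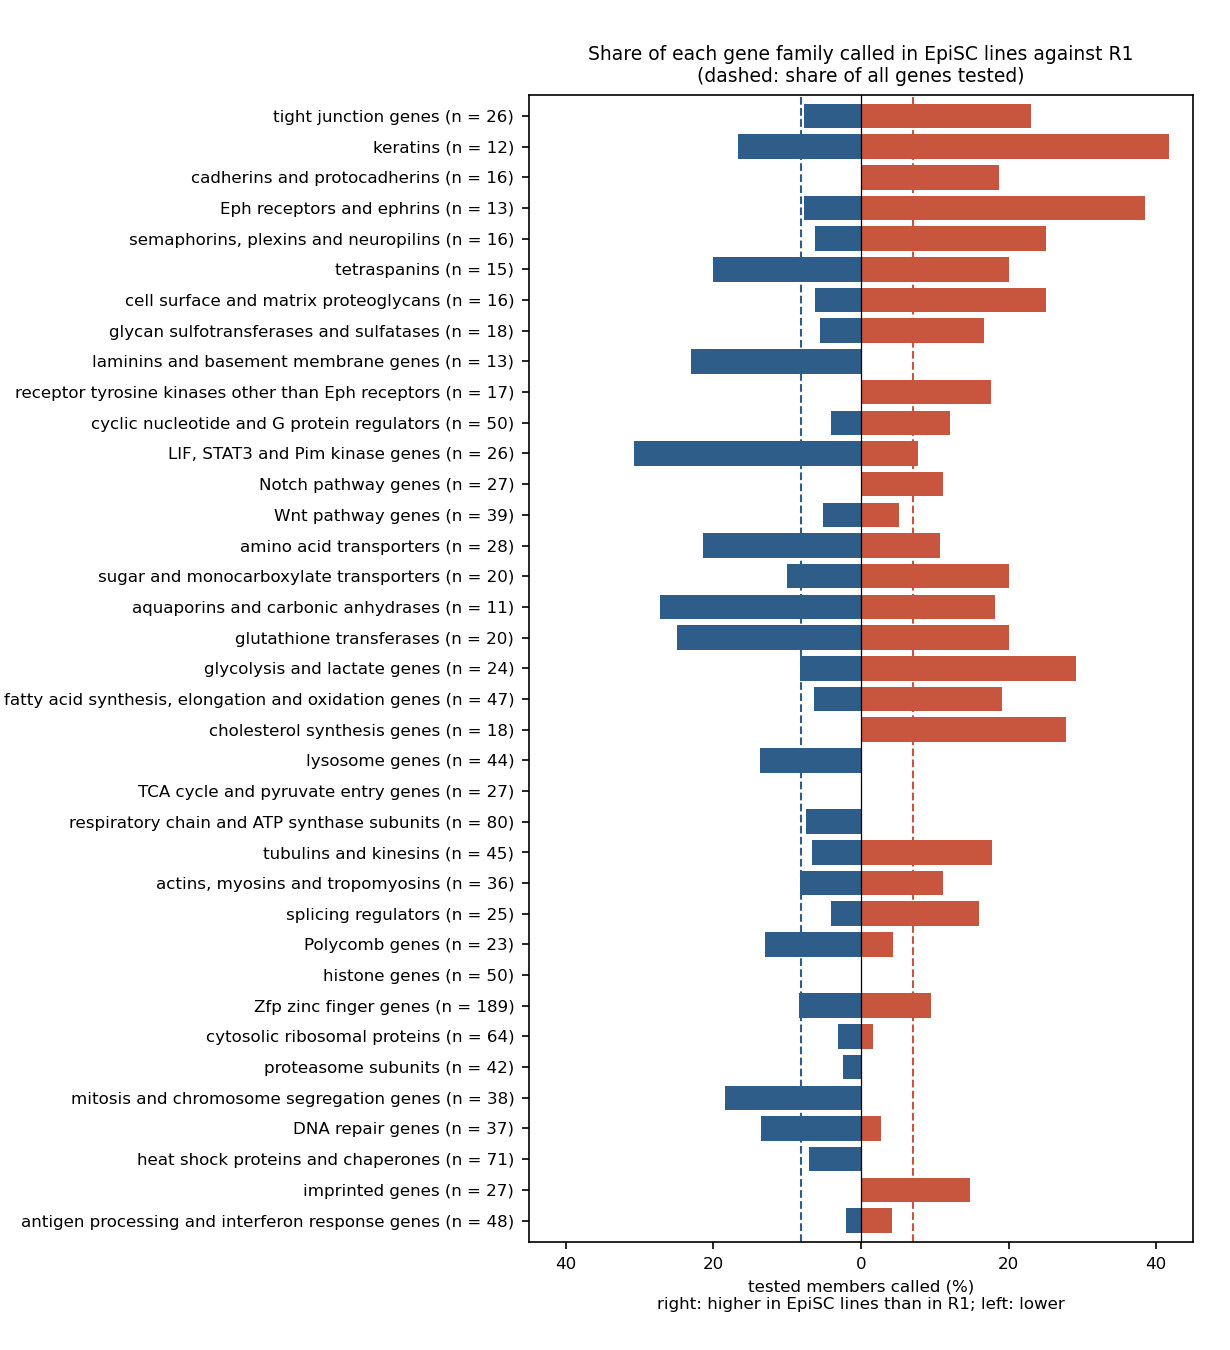
Share of the tested members of 37 gene families called by limma, in percent. Bars to the right are members higher in the EpiSC lines than in R1 and bars to the left are members lower, dashed lines mark the shares over all 9213 genes (7.1% and 8.11%), and n is the number of members tested. Keratins, Eph receptors, glycolysis and cholesterol synthesis genes reach furthest right, and LIF and STAT3 genes furthest left.

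At cell contacts, epithelial junction genes were gained beside losses of other members. Of 26 tight junction genes, 6 rose and 2 fell, with a median of 0.98, or 0.63 with dim members at their bounds. Marveld3, a tight junction membrane protein, lay between 6.83 and 7.97 (median 7.44) in the EpiSC lines, against 4.60 in R1, where it was not above background. All 6 lines lay above R1, and the mean was at least 3.2-fold higher (difference 2.77, standard error, SE, 0.44, adjusted p = 0.00511). Jam2, a junctional adhesion molecule, went the other way. It lay between 4.41 and 5.40 (median 4.5) in the EpiSC lines, below background in all of them, against 10.04 in R1, at least 22.4-fold lower (-5.41, SE 0.38, adjusted p = 7.64e-05). Its paralog Jam3 was not called (1.20). Of 12 keratins, 5 rose and 2 fell, with a median of 0.48, or 0.14 with dim members at their bounds. In EpiSC lines alone, 8 of the 12 keratins and 12 of the 26 tight junction genes were above background. They entered the test through those lines, which favours higher calls. Krt8 and Krt18, the filament pair of simple epithelia, were higher by 4.14 (SE 0.75) and 4.32 (SE 0.53, at least 15.5-fold), whereas Krt42, a type I keratin, was below background in every EpiSC line (4.75 to 5.07, median 4.87), against 9.82 in R1, at least 19.2-fold lower (-4.93, SE 0.23, adjusted p = 1.63e-05). The higher count of the tight junction genes fell to 3 without T9 and to 3 without C1a1, its lower count fell to 1 without OG2.2, E3, E5, T9 or C1a1, and the higher count of keratins fell to 3 without T9. Without background correction the higher counts were 2 tight junction genes and 3 keratins. With no detection filter 3 tight junction genes were higher, and of 47 keratins 4 were higher and 3 lower. The lower tight junction count was also 1 with the deposited values, other background or scaling, no detection filter, or trended variance.

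Other membrane proteins of epithelia followed. Prss8, the membrane-anchored protease prostasin, lay between 8.34 and 9.95 (median 9.21) in the EpiSC lines, against 5.42 in R1, at least 10.9-fold higher (3.72, SE 0.62, adjusted p = 0.00652), with no overlap. Protocadherin Pcdh1 was higher by 3.68 (SE 0.47, adjusted p = 0.00168), 1 of 3 called among 16 cadherins and protocadherins. The gap junction gene Gja1 (connexin 43) was at 13.16 to 13.88 (median 13.24) in the EpiSC lines, against 11.40 in R1, and was the 1 connexin of 7 called (1.97, SE 0.31, adjusted p = 0.00495). Tetraspanins, which organise other proteins in the membrane, split evenly, with 3 of 15 higher and 3 lower. Cd9 fell to 9.03 to 10.15 (median 9.24) in the EpiSC lines, against 11.67 in R1 (-2.32, SE 0.40, adjusted p = 0.00722). Tspan6 was higher by 2.09 (SE 0.40, adjusted p = 0.0108).

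More guidance receptors and ligands were called higher than lower. In EpiSC lines alone, 6 of 13 Eph genes and 12 of 16 semaphorin, plexin and neuropilin genes were above background. They entered the test through those lines, which favours higher calls. Of 13 Eph receptors and ephrins, 5 rose and 1 fell, with a median of 0.95, or 0.79 with dim members at their bounds. Epha1 was at 9.33 to 10.35 (median 10.04) in the EpiSC lines, against 4.81 in R1, at least 18.4-fold higher (5.09, SE 0.43, adjusted p = 0.000223). The ligand Efnb2 rose by 1.77 (SE 0.31, adjusted p = 0.00754). The receptor Epha2, which is also on the postimplantation epiblast list, lay lower, at 6.94 to 7.76 (median 7.45), against 9.03 in R1 (-1.58, SE 0.33, adjusted p = 0.0152). Neither gene's lines overlapped R1. Over all genes, all 6 lines lay above R1 in 29.7% and below in 26.1%. Of 16 semaphorins, plexins and neuropilins, 4 rose and 1 fell, Sema6a by 1.73 (SE 0.30, at least 1.59-fold, adjusted p = 0.00741) and Sema4b by -1.66 (SE 0.28, adjusted p = 0.00645). The higher count of Eph genes fell to 3 without OG2.2 and to 3 without C1a1, and the lower count of semaphorins reached 2 without E5. Without background correction 2 Eph genes and 2 semaphorin genes were called higher. The semaphorin list had a median of 0.57, or 0.28 with dim members at their bounds.

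The carbohydrate coat gained proteoglycans and one sulfotransferase by a wide margin. Chst1, which sulfates keratan chains and related glycans, had the largest fitted increase of all genes: 11.26 to 12.32 (median 12.02) in the EpiSC lines, against 4.40 in R1, at least 75.4-fold higher. Papss1, which makes the sulfate donor, was at 9.57 to 10.46 (median 10.04), against 8.21 in R1 (1.80, SE 0.39, adjusted p = 0.0183). In the same list of 18 sulfotransferase and sulfatase genes, 3 rose and 1 fell, namely Chst5 (at least 2-fold lower, -1.91, SE 0.33, adjusted p = 0.00724). Among 16 proteoglycan core proteins, 4 rose and 1 fell, with a median of 1.09, or 0.76 with dim members at their bounds. Syndecan Sdc2 lay between 7.84 and 9.0 (median 8.38) in the EpiSC lines and was at least 6.47-fold above its level of 5.41 in R1, where it was not above background (2.98, SE 0.42, adjusted p = 0.00291). The glypicans Gpc1 and Gpc3, coreceptors for growth factors, were higher by 2.09 (SE 0.29) and 2.48 (SE 0.51), and neurocan, Ncan, by 2.96 (SE 0.45, at least 3.78-fold). Every line lay above R1 for these genes, as in 29.7% of all genes. The lower count of sulfotransferases reached 2 without OG2.1, and with the deposited values 5 were higher.

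Basement membrane genes ran the other way. Of 13 laminin and basement membrane genes, 3 fell, and 11 had a negative difference, with a median of -0.53, or -0.74 with dim members at their bounds. Nid1, the nidogen that links laminin to collagen IV, lay between 5.0 and 6.17 (median 5.31) in the EpiSC lines, against 8.33 in R1 (-2.92, SE 0.44, adjusted p = 0.00376). Lama1, which is also on the endoderm marker list, was lower by -3.14 (SE 0.65, adjusted p = 0.0151). Extraembryonic endoderm is a cell type rich in basement membrane. Its marker list itself holds matrix genes (Lama1, Lamb1, Lamc1, Col4a1, Col4a2 and Sparc), so it is not independent of the genes above. Of 17 endoderm markers tested, 7 were lower, with a mean level of 6.10 to 7.07 in the EpiSC lines, against 7.78 in R1. Gata4, Afp and Apoa1 were above background on no array. The part of such cells in the result was not tested. Outside the basement membrane, the protease inhibitor Timp2 was higher by 2.54 (SE 0.43, at least 3.3-fold, adjusted p = 0.00685) and the stromelysin Mmp11 lower by -2.01 (SE 0.42, adjusted p = 0.0153). Fibroblast and feeder markers had 2 of 11 higher, with a mean level of 6.37 to 7.89 in the EpiSC lines, against 6.28 in R1. Col1a2, Col3a1 and Postn were above background on no array, and the part of such cells was not tested. The fibroblast count fell to 1 without OG2.1, T9 or C1a1, and without OG2.1 1 member was called lower.

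Of the receptors and their regulators, several kinases and G protein genes were higher in the EpiSC lines. Ddr1, a collagen receptor kinase of epithelia, lay between 9.38 and 11.10 (median 9.96), against 6.61 in R1 (3.45, SE 0.63, adjusted p = 0.00896). Flt1, a VEGF receptor that is also on the blood and endothelial list, was at least 7.36-fold higher (3.83, SE 0.66, adjusted p = 0.00719), and 3 of 17 receptor tyrosine kinases outside the Eph family rose. Cxcl12, a chemokine that attracts cells bearing Cxcr4, was at 8.55 to 10.53 (median 9.50) in the EpiSC lines, against 5.6 in R1, at least 13.8-fold higher (3.88, SE 0.65, adjusted p = 0.00654). Among 50 genes of cyclic nucleotide and G protein signalling, 6 rose and 2 fell, with a median of 0.30, or 0.24 with dim members at their bounds. Rgs10 and Rgs17, which switch off G protein alpha subunits, were below background in R1 and at least 7.31-fold and 6.44-fold higher in the EpiSC lines (adjusted p = 0.00208 and 0.00807). Gnas, the locus of the stimulatory alpha subunit, was at 10.55 to 11.41 (median 10.93) in the EpiSC lines, against 8.74 in R1 (2.17, SE 0.36, adjusted p = 0.00589). Gng2, a gamma subunit gene, rose by 2.31 (SE 0.30). Pde8a, a phosphodiesterase that breaks down cyclic AMP, was above background in R1 alone, at 7.43, and lay between 4.53 and 5.37 (median 4.66) in the EpiSC lines, at least 3.67-fold lower (-2.65, SE 0.34, adjusted p = 0.00169). Adgre5, an adhesion receptor also called CD97, fell by 4.66 (SE 0.33, adjusted p = 8.50e-05).

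The LIF branch was lower as a family: 8 of 26 listed genes fell and 2 rose, with a median of -0.63, or -0.74 with dim members at their bounds. Il6st, the gp130 chain shared by LIF family receptors, lay between 5.66 and 6.11 (median 5.83) in the EpiSC lines, against 7.70 in R1 (-1.85, SE 0.24, adjusted p = 0.00191). The kinase gene Pim2 rose by 4.69 (SE 0.67, at least 14.5-fold). The lower count fell to 3 without E3, 3 without T9 and 5 without C1a1, and the higher count to 1 without OG2.1, OG2.2, T9 or C1a1. The lower count was 5 with no detection filter, and the higher count 1 with the deposited values or median scaling. Secreted regulators of other pathways were among the genes found in R1 alone. Notum, an enzyme that inactivates Wnt proteins, lay between 4.47 and 4.70 (median 4.64) in the EpiSC lines, against 9.0 in R1, at least 10.8-fold lower (-4.37, SE 0.21, adjusted p = 1.71e-05). Inhbb, the activin B subunit, lay between 4.42 and 4.84 (median 4.55), against 9.31 in R1, at least 13.4-fold lower (-4.72, SE 0.24, adjusted p = 2.09e-05). The Wnt receptor Fzd2 was at 8.32 to 9.70 (median 9.33) in the EpiSC lines, against 6.10 in R1 (3.09, SE 0.53, adjusted p = 0.00707). The Hedgehog transducer Smo was higher by 1.76 (SE 0.23, adjusted p = 0.00207), and Dtx4, an E3 ligase of the Notch pathway, by 2.96 (SE 0.55, at least 3.56-fold, adjusted p = 0.00925). None of these 5 genes, which were named for their calls, overlapped between the EpiSC lines and R1. Over all genes, all 6 lines lay above R1 in 29.7% and below in 26.1%. Tead4, the DNA partner of Yap, was above background in R1 alone, at least 2.24-fold lower (-1.70, SE 0.23, adjusted p = 0.00228).

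**Figure D2:**
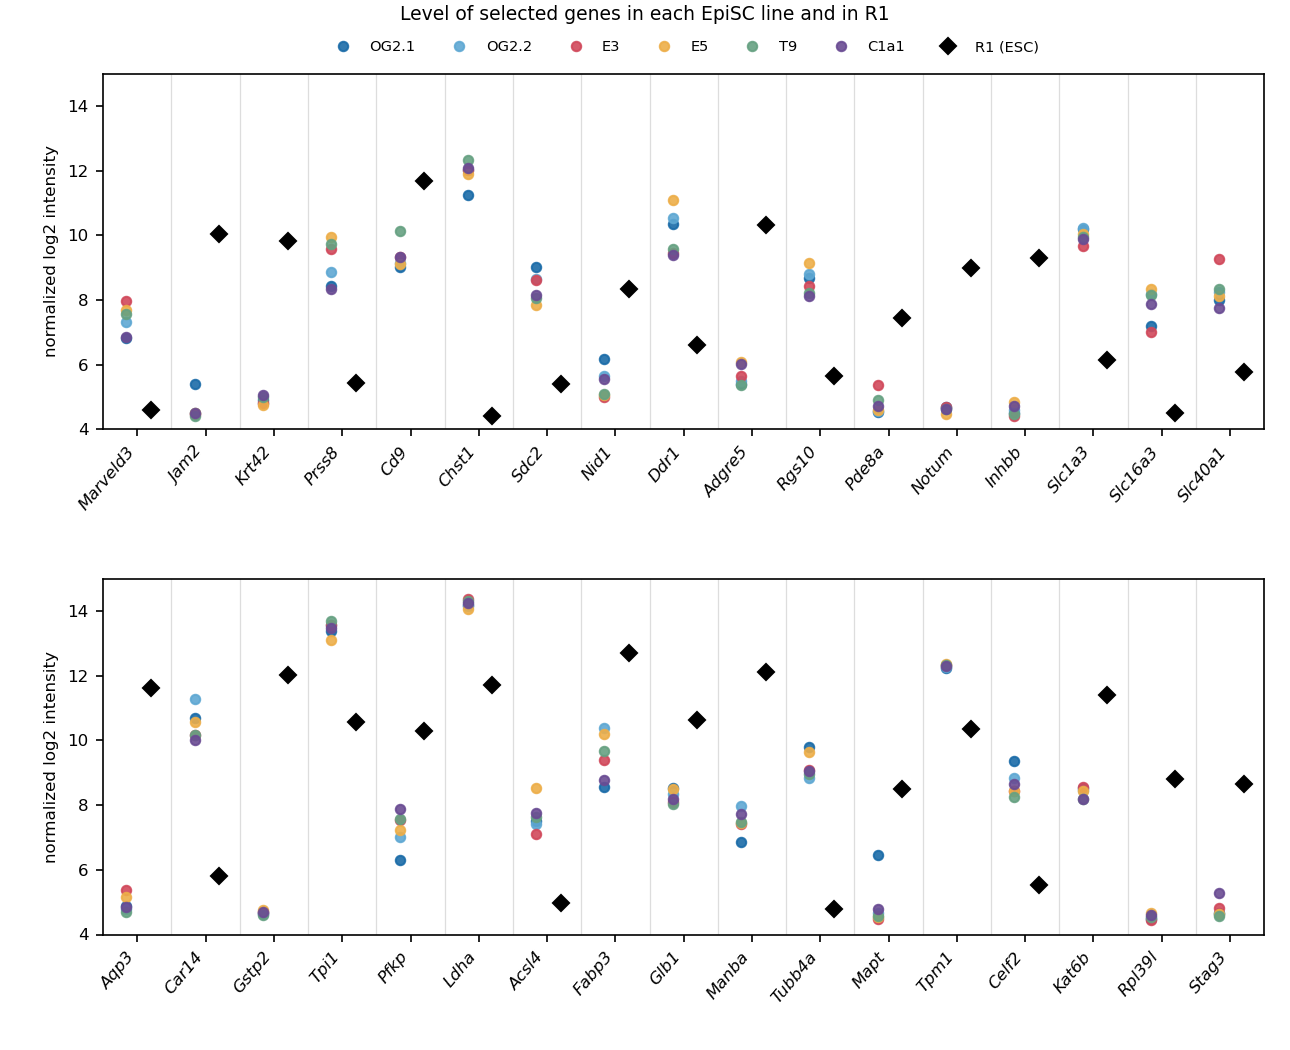
Normalized log2 intensity of 34 genes described in the text, with the 6 EpiSC lines as coloured points to the left and R1 as a black diamond to the right of each gene. For each gene all 6 EpiSC lines lie on 1 side of R1, from Chst1 (11.26 to 12.32 against 4.40) to Gstp2 (4.61 to 4.75 against 12.03). Over all genes tested, all 6 lines lie above R1 in 29.7% and below in 26.1%.

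Among transporters, Slc1a3 and Slc1a1 moved in opposite directions. Slc1a3, a glial-type glutamate transporter, lay between 9.68 and 10.22 (median close to 10) in the EpiSC lines, against 6.14 in R1 (3.86, SE 0.27, adjusted p = 7.15e-05). Slc1a1, another glutamate transporter, was above background in R1 alone, at 6.97, against 4.59 to 5.04 (median 4.81) in the EpiSC lines, at least 2.66-fold lower (-2.14, SE 0.24, adjusted p = 0.000895). Of 28 amino acid transporters 3 rose and 6 fell. The neutral amino acid carriers Slc38a4, Slc38a7 and Slc38a8 were lower by -2.34, -1.99 and -1.81 (Slc38a8 at least 2.17-fold), and the cationic carrier Slc7a1 by -1.36 (SE 0.21, at least 1.3-fold, adjusted p = 0.00454). The higher count fell to 1 without OG2.1, OG2.2, E5, T9 or C1a1. Of 20 sugar and monocarboxylate carriers, 4 rose and 2 fell. Slc16a3, which exports lactate, lay between 7.01 and 8.35 (median 8.01) in the EpiSC lines, against 4.5 in R1, at least 4.28-fold higher, and Slc16a13 was at least 2.61-fold higher (2.37, SE 0.31, adjusted p = 0.00188).

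Of 22 metal ion transporters and metallothioneins, 2 rose and 1 fell, near the shares over all genes, and without background correction or with no detection filter 1 rose. The iron exporter ferroportin, Slc40a1, was at 7.75 to 9.26 (median 8.19) in the EpiSC lines, against 5.77 in R1 (2.51, SE 0.49, adjusted p = 0.0112), and the transferrin receptor Tfrc, which brings iron in, at 9.72 to 10.49 (median 10.15), against 11.81 in R1 (-1.67, SE 0.30, adjusted p = 0.00869). The exporter was higher and the receptor lower in all 6 lines, as in 29.7% and 26.1% of all genes. Aqp3, a water and glycerol channel, was above background in R1 alone, at 11.61, against 4.68 to 5.36 (median 4.87) in the EpiSC lines, at least 66.3-fold lower (-6.66, SE 0.30). Car14 and Car11, a membrane carbonic anhydrase and a related protein without the activity, rose by 4.67 (SE 0.45) and 3.03 (SE 0.34, at least 4.73-fold). In all, 2 of 11 aquaporins and carbonic anhydrases rose and 3 fell. Among 33 ion channels, 3 rose and 2 fell, with the 2-pore potassium channels Kcnk1 (3.21, SE 0.50, adjusted p = 0.00454) and Kcnk5 (-2.49, SE 0.35, adjusted p = 0.00271) on opposite sides. The lower count of ion channels was 1 without background correction and 4 with no detection filter. The mitochondrial carnitine carrier Slc25a20 lay between 8.0 and 9.02 (median 8.61) in the EpiSC lines, against 11.80 in R1 (-3.28, SE 0.37, adjusted p = 0.000962). The riboflavin transporter Slc52a3 and the organic cation exporter Slc47a1 were lower by -3.15 (SE 0.39) and -3.56 (SE 0.39).

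Glutathione transferases, which attach glutathione to reactive compounds, were divided between the cell types: 4 of 20 rose and 5 fell. The 3 Gstp genes lie next to each other on chromosome 19, and their promoters are shown because the genes moved by very different amounts. The windows run from 250 bases before to 50 after each RefSeq start on GRCm38.p6, all on the minus strand, at chr19:4037863-4038162 (Gstp1), chr19:4042172-4042471 (Gstp2) and chr19:4059398-4059697 (Gstp3). Capitals mark each CG, the CpG dinucleotide at which DNA is methylated, which reads the same on both strands.
Gstp1: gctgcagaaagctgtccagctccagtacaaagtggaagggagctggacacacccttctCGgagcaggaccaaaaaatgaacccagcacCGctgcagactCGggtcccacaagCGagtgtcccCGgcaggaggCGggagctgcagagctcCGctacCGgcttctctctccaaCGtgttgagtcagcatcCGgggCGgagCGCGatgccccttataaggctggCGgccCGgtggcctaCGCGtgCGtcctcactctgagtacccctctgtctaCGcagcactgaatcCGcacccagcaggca
Gstp2: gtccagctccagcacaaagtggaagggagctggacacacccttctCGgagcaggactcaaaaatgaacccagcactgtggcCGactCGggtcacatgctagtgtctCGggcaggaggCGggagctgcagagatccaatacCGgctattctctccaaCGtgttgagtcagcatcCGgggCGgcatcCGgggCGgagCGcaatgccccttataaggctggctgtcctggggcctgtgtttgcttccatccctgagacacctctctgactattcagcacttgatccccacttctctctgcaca
Gstp3: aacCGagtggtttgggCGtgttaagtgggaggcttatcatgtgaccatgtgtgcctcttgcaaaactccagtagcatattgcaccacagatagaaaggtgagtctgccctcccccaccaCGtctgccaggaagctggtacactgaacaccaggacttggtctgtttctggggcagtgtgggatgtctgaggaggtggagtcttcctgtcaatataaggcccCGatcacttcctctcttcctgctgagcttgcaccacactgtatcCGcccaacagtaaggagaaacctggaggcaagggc
The windows hold 20, 12 and 5 CG, and 99.3% of the 9679 promoters of tested genes hold at least 1. Gstp2 lay between 4.61 and 4.75 (median 4.67) in the EpiSC lines, below background in all, against 12.03 in R1, at least 88.6-fold lower. Gstp3 lay between 4.5 and 4.77 (median 4.61), against 6.90 in R1, at least 2.53-fold lower (-2.25, SE 0.22, adjusted p = 0.000457). Gstp1 overlapped R1 through T9, at 10.38 to 11.64 (median 10.52) in the EpiSC lines, against 11.51 in R1, and was not called (-0.80, SE 0.45, adjusted p = 0.290). Sharing of signal between the probes of these paralogs was not tested. Of the other classes, Gsta3 fell by 3.34 (SE 0.31, adjusted p = 0.000372), and the mitochondrial Gstk1 rose to 9.33 to 10.34 (median 9.60) in the EpiSC lines, against 6.58 in R1 (3.12, SE 0.39, adjusted p = 0.00152). Gsto1 rose by 1.74 (SE 0.35, adjusted p = 0.0135). The higher count fell to 2 without OG2.2, without T9, without background correction and with no detection filter.

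Glycolysis changed by step and by isoform. Of 24 glycolysis and lactate genes, 7 rose and 2 fell, with a median of 0.65, or 0.62 with dim members at their bounds. Triose phosphate isomerase, Tpi1, lay between 13.10 and 13.69 (median 13.51) in the EpiSC lines, against 10.56 in R1 (2.90, SE 0.27, adjusted p = 0.000355). Ldha, which makes lactate, was at 14.06 to 14.36 (median 14.21), against 11.71 in R1 (2.51, SE 0.22, adjusted p = 0.000285), and pyruvate kinase, Pkm, rose by 1.69 (SE 0.33, adjusted p = 0.0112). Phosphofructokinase, the committed step, divided by isoform on the probes used. The other kept probe of the liver-type Pfkl had the same sign and was not called. The liver-type Pfkl was at 12.32 to 13.03 (median 12.64) in the EpiSC lines, against 9.85 in R1 (2.79, SE 0.29, adjusted p = 0.000640), the platelet-type Pfkp at 6.31 to 7.89 (median 7.38), against 10.29 in R1 (-3.03, SE 0.51, adjusted p = 0.00667), and the muscle-type Pfkm was not called (0.83). The aldolases were less divided, with Aldoc higher by 4.05 (SE 0.38, adjusted p = 0.000367) and Aldoa at 1.04 (SE 0.33, adjusted p = 0.0751). The lower count fell to 1 without OG2.1, OG2.2, E5, T9 or C1a1, and with the deposited values, no detection filter or trended variance. Pfkp was the member that stayed called in these settings. In the test against a log2 difference of 1, 0 members were called lower.

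In lipid metabolism, fatty acid activation, desaturation and sterol genes rose, and single members fell. Of 47 fatty acid genes, 9 rose and 3 fell, although the median was 0.06. Acsl4 and Acsl5, which activate fatty acids with coenzyme A, were higher by 2.68 (SE 0.45, at least 3.89-fold, adjusted p = 0.00662) and 2.60 (SE 0.45, adjusted p = 0.00719). The desaturase Scd1 was at 9.89 to 11.14 (median 10.88) in the EpiSC lines, against 8.52 in R1 (2.2, SE 0.43, adjusted p = 0.0112). The fatty acid binding proteins crossed over. Fabp5 lay between 6.67 and 7.60 (median 7.10) in the EpiSC lines, against 4.54 in R1, at least 2.69-fold higher (2.58, SE 0.41, adjusted p = 0.00495), and Fabp3 between 8.57 and 10.38 (median 9.54), against 12.69 in R1 (-3.19, SE 0.66, adjusted p = 0.0148). The acetate-activating enzyme Acss1 fell by 1.49 (SE 0.28, adjusted p = 0.00927). Of 18 cholesterol synthesis genes, 5 rose and 17 had a positive difference, with a median of 0.88 (0.80 with dim members at their bounds) and a range of 0.71 to 1.20 over the lines. Stard4, a cholesterol carrier, rose by 1.97 (SE 0.33, adjusted p = 0.00667) and the desaturase Sc5d by 1.66 (SE 0.31, at least 1.5-fold, adjusted p = 0.00977). The fatty acid count of 9 fell to 5 without T9, and the cholesterol count of 5 fell to 3 without OG2.1 or E3 and to 2 without T9 or C1a1. It was 3 with the deposited values or median scaling.

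Lysosomal genes were lower in part. Of 44 tested, 6 fell and 29 had a negative difference, with a median of -0.36 (-0.38 with dim members at their bounds) and -0.45 to -0.07 over the lines. Beta-galactosidase, Glb1, lay between 8.04 and 8.53 (median 8.26) in the EpiSC lines, against 10.64 in R1 (-2.37, SE 0.27, adjusted p = 0.0010). The membrane protein Lamp1 was lower by -1.07 (SE 0.22, adjusted p = 0.0154). Manba, lysosomal beta-mannosidase, and Laptm5, a lysosomal membrane protein of blood cells, lay outside the list and ranked among the 40 largest decreases. Both were named for that rank, so they add nothing to the result of the list. Manba was at 6.86 to 7.96 (median 7.46) in the EpiSC lines, against 12.12 in R1 (-4.63, SE 0.37, adjusted p = 0.000176), and Laptm5 at 4.79 to 6.56 (median 5.53), against 12.21 in R1 (-6.53, SE 0.67, adjusted p = 0.000580).

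The mitochondrial core differed little. By limma, 0 of 27 TCA cycle and pyruvate entry genes were called, with 1 higher and 3 lower at an unadjusted p under 0.05 and a median of -0.14. Without OG2.1 1 was called higher, and without OG2.2 1 lower. Of 80 respiratory chain and ATP synthase subunits, 6 fell (7.5%, against 8.11% of all genes), and this count moved with the processing, to 13 without background correction, 11 with no detection filter and 11 with trended and robust variance. A negative difference was found in 55, and the median lay below 0 in every line (-0.32 to -0.18). Ribosomal proteins of the cytosol had a median of -0.01 (-0.08 to 0.05 over the lines) and proteasome subunits -0.02 (-0.15 to 0.10). Histone genes differed between lines. By limma, 0 of 50 were called, with 1 higher and 1 lower at an unadjusted p under 0.05. In all, 44 had a positive difference, with a median of 0.59, or 0.39 with dim members at their bounds. Their median difference from R1 ran from -0.32 in OG2.2 over 0.07 in OG2.1 to 1.52 in T9, as the plot of list medians shows. Without OG2.2, or without background correction, 1 histone gene was called lower.

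**Figure D3:**
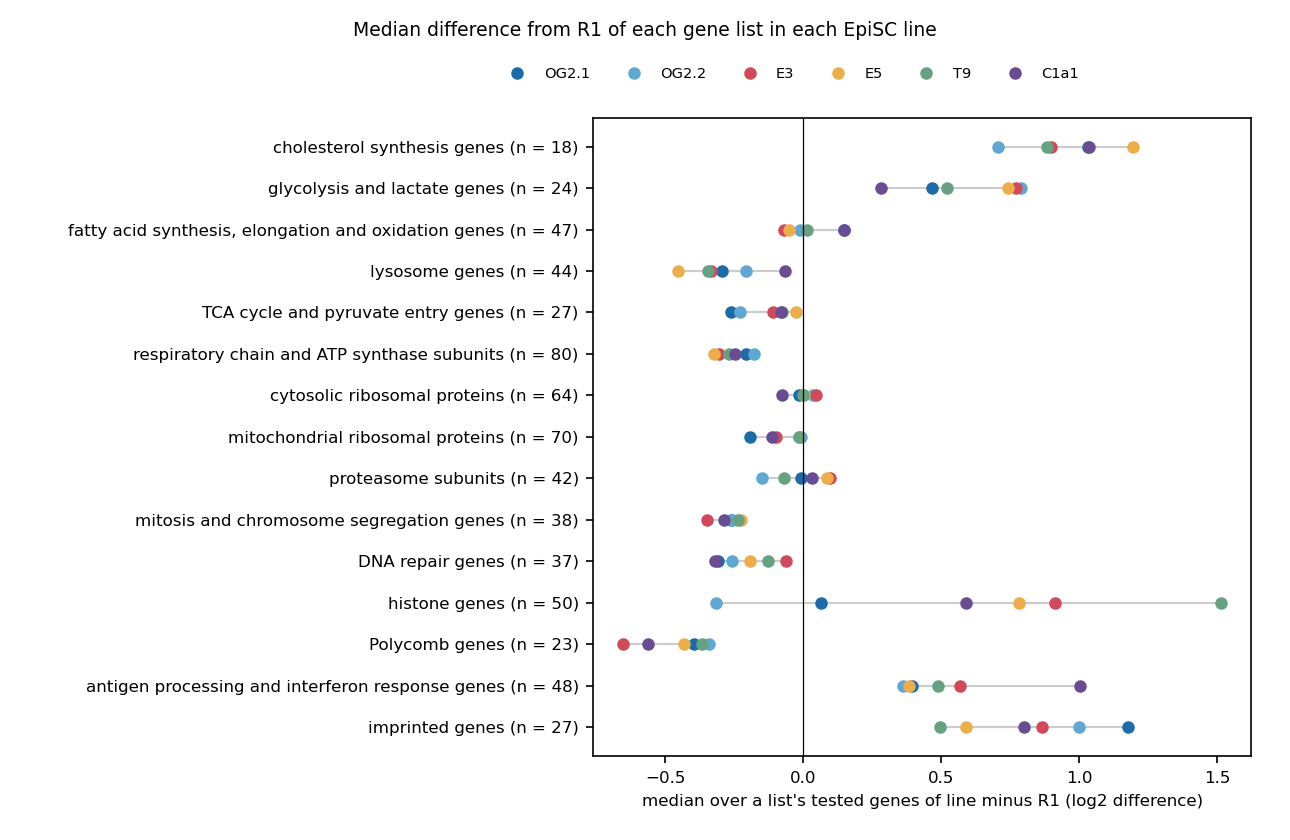
Median over each gene list of the difference between an EpiSC line and R1, in log2 units, with 1 coloured point per line and n the number of genes tested. Cytosolic ribosomal proteins stay within -0.08 to 0.05, cholesterol synthesis genes lie between 0.71 and 1.20 in every line, and histone genes spread from -0.32 (OG2.2) to 1.52 (T9).

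In the cytoskeleton, of 45 tubulin, kinesin and microtubule-associated genes, 8 rose and 3 fell. Tubb4a, a beta tubulin of the nervous system, lay between 8.84 and 9.79 (median 9.07) in the EpiSC lines, against 4.80 in R1, at least 11.6-fold higher (4.43, SE 0.39, adjusted p = 0.000271). The axonal motor Kif1a, the kinesin Kif21a and the dendritic protein Map2, itself on the neural list, rose by 3.32 (SE 0.38, at least 5.62-fold), 2.41 (SE 0.43) and 2.57 (SE 0.56). The axonal protein tau, Mapt, was lower, at 4.48 to 6.45 (median 4.63), with OG2.1 the 1 line above background, against 8.49 in R1 (-3.57, SE 0.67, adjusted p = 0.0103). Neural markers had 2 of 7 tested members higher, Map2 itself among them. For 5 of the 7, R1 gave no signal above background, so they entered the test through EpiSC lines, which favours higher calls. Their median difference from R1 was 1.32 in OG2.1 and 1.12 in OG2.2, and 0.21 to 0.48 in the other lines. Their mean level was 6.01 to 7.01 in the EpiSC lines, against 5.12 in R1. Sox1, Pax6, Neurog1, Neurog2, Olig2 and Tubb3 were above background on no array. The part of neural cells was not tested. Among 36 actin, myosin and tropomyosin genes, 4 rose and 3 fell, or 5 fell without background correction or with no detection filter. Tropomyosin Tpm1, an actin filament stabiliser, was at 12.24 to 12.35 (median 12.31), against 10.34 in R1 (1.97, SE 0.20, adjusted p = 0.000613), and Tpm2 rose by 3.14 (SE 0.29). Non-muscle myosin Myh10 and moesin, Msn, rose by 1.75 (SE 0.35) and 1.59 (SE 0.32). Lamin A, Lmna, which stiffens the nucleus, fell to 6.91 to 7.97 (median 7.47) in the EpiSC lines, against 9.02 in R1 (-1.59, SE 0.37, adjusted p = 0.0261). The muscle light chains Myl4 and Mylpf were lower by -2.69 (SE 0.32, at least 3.86-fold) and -4.93 (SE 0.29).

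Several R1 genes are otherwise known from blood cells. Myo1f, a myosin of leukocytes, lay between 4.41 and 4.81 (median 4.56) in the EpiSC lines, below background in all, against 10.83 in R1, at least 38.6-fold lower (-6.26, SE 0.23, adjusted p = 5.14e-06). The tetraspanin Cd37 was lower by -1.98 (SE 0.21, at least 1.83-fold, adjusted p = 0.000613) and the granule proteoglycan Srgn by -1.48 (SE 0.26, at least 1.76-fold). Srgn is also on the extraembryonic endoderm marker list and not on the blood and endothelial list. The blood and endothelial marker list did not move with them. The list had 2 of 11 higher and 1 lower, with a mean level of 5.73 to 5.95 in 5 EpiSC lines and 7.19 in OG2.1, against 5.55 in R1. Ptprc, Tal1, Runx1, Gata1 and Fli1 were above background on no array. The lower count of that list reached 2 without E5.

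Among chromatin regulators, of 23 Polycomb genes 3 fell and 1 rose, and 15 had a negative difference (median -0.61, -0.65 to -0.34 over the lines). Mtf2, a targeting subunit of the complex that methylates histone H3, lay between 7.94 and 9.18 (median 8.87) in the EpiSC lines, against 10.72 in R1 (-1.97, SE 0.42, adjusted p = 0.0173), and the core subunit Eed fell by 1.39 (SE 0.26, adjusted p = 0.00918). The acetyltransferase Kat6b was at 8.18 to 8.55 (median 8.46) in the EpiSC lines, against 11.42 in R1 (-3.03, SE 0.24, adjusted p = 0.000176). Kat2b was above background in R1 alone, at least 3.16-fold lower (-2.04, SE 0.24), and the deacetylase Sirt6 fell by 1.25 (SE 0.26, adjusted p = 0.0146). The remodelling subunits Smarca2 and Smarce1 went the other way, higher by 2.12 (SE 0.37) and 1.60 (SE 0.30). Without OG2.2 no Polycomb gene was called higher, and without E3 2 were.

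Among DNA-binding factors beyond the naive set, the retinoid receptors Rara and Rxra were above background in R1 alone, at least 2.11-fold and 1.95-fold lower (-1.77, SE 0.28, for Rara and -1.64, SE 0.25, for Rxra), and Nr6a1, the germ cell nuclear factor, rose to 10.98 to 11.38 (median 11.13) in the EpiSC lines, against 9.31 in R1 (1.85, SE 0.25, adjusted p = 0.00223). Of 17 nuclear receptors, 1 rose and 4 fell. Of 19 Myc, Max and E2f genes, 1 rose and 3 fell, Mycl by 2.15 (SE 0.42) and E2f2 by -1.61 (SE 0.33). The X-linked homeobox gene Rhox5 lay between 5.94 and 7.31 (median 6.17) in the EpiSC lines, against 12.50 in R1 (-6.13, SE 0.48, adjusted p = 0.000159), and its cluster neighbour Rhox9 was above background in R1 alone, at least 2.77-fold lower (-2.54, SE 0.22, adjusted p = 0.000223). Of 189 Zfp genes, 18 rose and 16 fell, close to the shares over all genes. Zfp334 was higher by 3.07 (SE 0.29, adjusted p = 0.000421), and Zfp819, above background in R1 alone, was at least 15-fold lower (-4.86, SE 0.23, adjusted p = 1.71e-05). The higher count of Zfp genes fell to 10 without OG2.1, to 11 without T9 and to 10 without background correction. With the deposited values 2 nuclear receptors were higher, and 2 Myc, Max and E2f genes were higher without background correction, with the mean of a gene's probes or with trended variance.

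Of 25 RNA-binding regulators of splicing, 4 rose and 1 fell. Esrp1, which directs epithelial splicing, was at 10.49 to 11.13 (median 10.87) in the EpiSC lines, against 5.51 in R1, at least 35.1-fold higher. Celf2 lay between 8.24 and 9.38 (median 8.55), against 5.52 in R1, at least 7.85-fold higher (3.15, SE 0.40, adjusted p = 0.00173). Rbfox3, the neuronal splicing factor also called NeuN, was at least 2.90-fold higher (2.66, SE 0.46, adjusted p = 0.00737), and the SR protein gene Srsf6 rose by 1.31 (SE 0.24, adjusted p = 0.00918). For all 4 genes every EpiSC line lay above R1, as in 29.7% of all genes. Without OG2.1, OG2.2, T9 or C1a1, without background correction, or with trended variance, no splicing regulator was called lower. Lin28a, which binds let-7 precursors, rose by 1.72 (SE 0.31, adjusted p = 0.00826), and Eif4e3, a cap-binding protein, by 2.2 (SE 0.32, at least 3.65-fold, adjusted p = 0.00357).

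Some complexes that every cell uses have a second, tissue-restricted paralog, and in R1 several of these were above background. The pairs below were chosen after their values were seen. Rpl39l, a testis-enriched form of a ribosomal protein, lay between 4.45 and 4.66 (median 4.54) in the EpiSC lines, below background in all, against 8.82 in R1, at least 9.59-fold lower (-4.27, SE 0.21, adjusted p = 1.75e-05). Its widely used counterpart Rpl39 overlapped R1, at 14.18 to 14.48 (median 14.40), against 14.29 (0.08, SE 0.22, adjusted p = 0.839). The muscle-enriched Rpl3l was at least 2.17-fold lower (-1.89, SE 0.32), and Rpl3 was not called (0.12, SE 0.21). In cytochrome oxidase, Cox8c and Cox7b2 were above background in R1 alone, at least 1.61-fold and 1.12-fold lower (-1.85 and -1.29), and Cox7a1 was lower by -2.06 (SE 0.29, adjusted p = 0.00284). Their counterparts Cox8a (-0.37), Cox7b (-0.80) and Cox7a2 (0.12) were not called. Cox6b2 (-0.76) was not called either, nor Cox6b1 (0.43). Cct6b, a chaperonin subunit of testis, differed by -0.99 (SE 0.25, at least 1.19-fold lower, adjusted p = 0.0349), a call that ended without OG2.1, E3 or C1a1 (adjusted p = 0.0565, 0.0532 and 0.0539), and Cct6a did not differ (0.04, SE 0.24). The ferritin-like gene Fthl17f was at least 24.6-fold lower (-5.59, SE 0.29, adjusted p = 2.12e-05), against -0.38 (SE 0.26) for the ferritin heavy chain Fth1.

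Further pairs chosen in the same way come from cohesin, the ring that holds sister chromatids together, and from other families. Stag3, a meiotic subunit, lay between 4.58 and 5.28 (median 4.65) in the EpiSC lines, against 8.66 in R1, at least 8.55-fold lower (-3.89, SE 0.30, adjusted p = 0.000147). Smc1b, another meiotic subunit, lay between 4.36 and 4.67 (median 4.41), against 7.76 in R1, at least 4.60-fold lower (-3.30, SE 0.23, adjusted p = 7.10e-05). The mitotic subunits Stag1 (0.34), Stag2 (0.77) and Smc1a (0.39) were not called. The kinase Aurkc, best known from germ cells, was at least 3.58-fold lower (-2.89, SE 0.21, adjusted p = 0.000109), and Aurka was not called (0.38). Rbmxl2, a testis RNA-binding protein, and the X-linked Rbmx moved apart, at -6.71 (SE 0.23, at least 50.1-fold lower) and 3.35 (SE 0.68, adjusted p = 0.0138). The alpha tubulins Tuba3a and Tuba3b were lower by -3.84 (SE 0.30) and -2.87 (SE 0.41) while Tuba1a (0.62) and Tuba1b (0.03) were not called. Sharing of signal between the probes of close paralogs such as Tuba3a and Tuba3b was not tested. Of the 38 mitosis and chromosome segregation genes 7 fell, and the median was -0.29 (-0.35 to -0.22 over the lines).

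**Figure D4:**
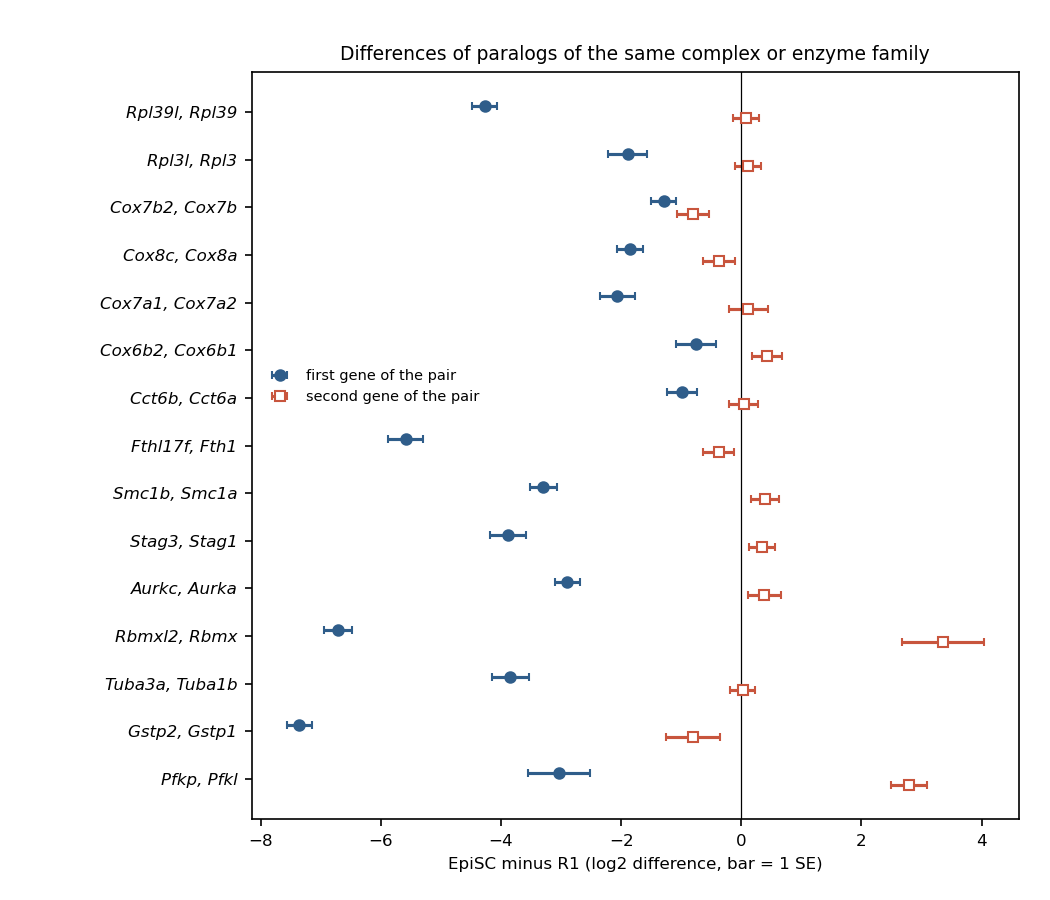
Log2 difference, EpiSC minus R1, of 15 pairs of paralogs, with bars of 1 SE. Blue circles are the first gene of each pair and open red squares the second. The first gene lies between -7.36 (Gstp2) and -0.76 (Cox6b2), and the second between -0.80 and 3.35, with Rbmx and Pfkl called higher and none called lower.

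DNA repair genes were lower in part: of 37, 5 fell and 1 rose. The mismatch repair gene Msh6 was at 11.93 to 12.52 (median 12.21) in the EpiSC lines, against 13.69 in R1 (-1.47, SE 0.28, adjusted p = 0.00987). Brca2 and Fanci, of crosslink and break repair, fell by 1.12 (SE 0.23, adjusted p = 0.0140) and 1.53 (SE 0.26, adjusted p = 0.00667). The lower count fell to 3 without T9, where no member was called higher. No member was called higher without background correction or with trended variance either. The cell cycle inhibitor locus Cdkn2a was lower by -2.47 (SE 0.38, adjusted p = 0.00457) and the kinase Cdk14 higher by 2.57 (SE 0.36, at least 4.46-fold, adjusted p = 0.00278).

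Stress and death genes moved singly. The small heat shock protein Hspb1 lay between 8.31 and 9.83 (median 9.22) in the EpiSC lines, against 12.66 in R1 (-3.52, SE 0.48, adjusted p = 0.00228). It was 1 of 5 lower among 71 heat shock and chaperone genes, near the share over all genes. The stress cofactor Nupr1 fell by 3.42 (SE 0.66, adjusted p = 0.0111). Of 20 hypoxia-induced genes 3 rose and 2 fell. Egln3, a prolyl hydroxylase that marks HIF for degradation, was at 8.02 to 9.66 (median 8.44) in the EpiSC lines, against 5.37 in R1, at least 7.34-fold higher (3.2, SE 0.52, adjusted p = 0.00564), and the HIF subunit gene Epas1 was above background in R1 alone, at least 2.18-fold lower (-2.08, SE 0.25, adjusted p = 0.00123). Of 26 Bcl2 family and caspase genes 3 rose and 2 fell. Casp6, an executioner caspase, was higher by 1.91 (SE 0.31, adjusted p = 0.00530) and the mitophagy receptor Bnip3l by 1.54 (SE 0.32, adjusted p = 0.0141). Pmaip1, the death inducer NOXA, was above background in R1 alone, at least 2.21-fold lower (-2.05, SE 0.23, adjusted p = 0.000974).

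Imprinted genes had 4 of 27 higher, 22 with a positive difference and a median of 0.85 (0.50 to 1.18 over the lines). Grb10, an adaptor that restrains insulin and IGF receptors, was at 11.95 to 12.81 (median 12.51) in the EpiSC lines, against 9.72 in R1 (2.73, SE 0.32, adjusted p = 0.00124). Snrpn, a spliceosome protein gene, rose by 1.96 (SE 0.26, adjusted p = 0.00193). Igf2 shows the limit that the spread between lines sets. It ran from 8.95 to 12.81 (median 11.65) in the EpiSC lines, all above 6.89 in R1, and was not called (4.48, SE 1.27, adjusted p = 0.0507). The binding protein genes Igfbp5 (5.43, SE 2.02) and Igfbp3 (2.80, SE 1.1) were likewise above R1 in all lines, by at least 20.7-fold and 6.63-fold in the mean, and not called, while Igfbp7 fell to 5.30 to 6.82 (median 5.84) in the EpiSC lines, against 9.64 in R1 (-3.75, SE 0.49, adjusted p = 0.00205). Antigen processing and interferon genes had 2 of 48 higher and 1 lower, below the shares over all genes, with 38 positive differences and a median of 0.71, or 0.48 with dim members at their bounds. Their counts ranged from 0 to 4 higher and 1 to 2 lower when 1 line was left out, 0 without OG2.2 or T9 and 4 without C1a1. The counts were 4 higher and 2 lower with the deposited values, 0 higher without background correction and 1 higher and 3 lower with no detection filter.

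Promoter composition was examined because 288 of the lower genes were above background in R1 alone. RefSeq promoter windows of 300 bases on GRCm38.p6 were found for 7492 of the 9213 genes, 9679 windows in all. The ratio of observed to expected CG had a median of 0.415 in 271 windows of called genes found in R1 alone, with 8 CG per window, against 0.75 and 20 CG over all tested genes. Genes above background in all 7 lines had 0.79. Partial detection went with a lower ratio in the other direction too, at 0.64 for genes in all 6 EpiSC lines and not in R1 and 0.57 for genes in 1 to 5 EpiSC lines and not in R1. These are descriptions, with no test, and the quartiles of the R1 set ran from 0.21 to 0.71. Stag3, Khdc3 and Chst1 show the range. Stag3, on the plus strand at chr5:138280259-138280558, has 30 CG, and Khdc3, an oocyte and embryo gene found in R1 alone, on the plus strand at chr9:73102148-73102447, has 0. Chst1, found in the EpiSC lines and not in R1, on the plus strand at chr2:92600867-92601166, has 1. Capitals again mark CG.
Stag3: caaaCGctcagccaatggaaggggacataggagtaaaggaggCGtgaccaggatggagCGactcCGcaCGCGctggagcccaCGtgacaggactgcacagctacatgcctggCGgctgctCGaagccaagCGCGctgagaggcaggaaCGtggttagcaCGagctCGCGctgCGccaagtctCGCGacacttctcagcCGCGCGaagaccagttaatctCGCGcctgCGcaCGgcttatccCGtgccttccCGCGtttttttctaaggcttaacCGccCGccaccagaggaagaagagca
Khdc3: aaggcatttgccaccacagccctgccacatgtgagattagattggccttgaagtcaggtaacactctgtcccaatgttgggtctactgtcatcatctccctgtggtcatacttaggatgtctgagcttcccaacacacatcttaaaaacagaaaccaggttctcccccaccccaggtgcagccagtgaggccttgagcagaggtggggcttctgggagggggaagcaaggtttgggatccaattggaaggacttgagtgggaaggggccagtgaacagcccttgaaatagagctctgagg
Chst1: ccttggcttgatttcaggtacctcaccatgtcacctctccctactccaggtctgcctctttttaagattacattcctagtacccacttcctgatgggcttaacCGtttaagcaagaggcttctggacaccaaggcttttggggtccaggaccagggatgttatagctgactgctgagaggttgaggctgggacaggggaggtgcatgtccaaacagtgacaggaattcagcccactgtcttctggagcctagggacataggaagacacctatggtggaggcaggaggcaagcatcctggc
Khdc3 lay between 4.78 and 5.53 (median 4.94) in the EpiSC lines, against 9.97 in R1, at least 21.3-fold lower (-4.92, SE 0.32, adjusted p = 5.84e-05).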

How the data were processed

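Total RNA of 7 lines was hybridised to Illumina bead arrays, per the labels' protocols. The deposited table used here holds non-normalized probe intensities and a detection p-value per array, per the file headers. The submitters' processing notes name BeadStudio 3.2, lumi and RMA. The authors' deposited log2 values served as an alternative (r of at least 0.820 with the same array, against at most 0.233 with another, after centring of probes). Build and probe annotation: not given in the sources used here.

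Intensities were background-corrected and quantile-normalized with neqc (limma 3.58.1, R 4.3.3, offset 16). A probe needed 1 array or more with a detection p under 0.01 (13396 of 25697 did), and 12626 kept probes had 1 gene, with 0 probes naming several. The brightest kept probe stood for each of 9213 genes. Of 348 called genes with other kept probes, 330 had the same sign in all of them. Another probe was called in the same direction for 218, and in the opposite direction for 0. Marveld3, Prss8, Ddr1, Cxcl12, Slc16a3, Egln3, Tpm2 and Pfkl were among those with no other probe called. In addition, 121 called probes had no gene. limma's moderated test compared 6 EpiSC arrays with 1 R1 array (5 residual degrees of freedom), with Benjamini-Hochberg adjustment over all genes and a threshold of 0.05. An exact permutation of 6 against 1 cannot go below p = 0.143. On simulated data with 200 of 9213 genes changed, 0%, 52% and 95.5% of those changed by 1, 2 and 4 log2 units were recovered. False calls among the unchanged genes numbered 0, 3 and 15. Fewer genes were changed in the simulation than were called in the real data. The adjustment was therefore stricter, and these shares do not give the sensitivity of the real test.

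The offset understates folds of dim genes. Precision is limited by how few arrays there are. Members and gene lists were chosen with earlier results of these data known. Named genes are the called members with the largest differences of each list, up to 4 in each direction, the 40 largest differences each way outside the naive, epiblast and germ cell lists, and paralogs of named genes. Rbmx, Ldha, Pkm, Fth1, Igf2, Igfbp3 and Igfbp5 and the paralog pairs were chosen after their values were seen. Alternatives were the deposited values, other background, scaling, filter, probe and variance choices, and leaving out lines. Promoter windows are RefSeq's. Python 3.11.15, pandas 2.3.3, numpy 2.4.6 and matplotlib 3.10.9 made the summaries and plots.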

Additional observations from a re-analysis of the deposited data

Results flagged for a closer look

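For 13 of the 173 genes described above, 1 EpiSC line lay apart from the other 5 by Dixon's criterion, which chance meets in about 1 in 20 groups. OG2.1 was highest for Jam2 (5.40) and Mapt (6.45). OG2.2 was highest for Cox6b2 (9.39), Egln3 (9.66) and Gsta3 (5.6). T9 was highest for Cd9 (10.1, against 9.03 to 9.34 in the other 5), Gstp1 (11.6) and Nupr1 (6.70). C1a1 was highest for Chst5 (5.27), Stag3 (5.28) and Tspan6 (10.6). E5 was lowest for E2f2 (6.31) and Notum (4.47). Of these, Gstp1 is the gene for which the separate line changed the overlap, since T9 alone lay above R1.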

How the results depend on the processing

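The counts of 654 higher and 747 lower genes stayed within 1.5 times under every scaling, background, probe and variance alternative tried. Testing against a log2 difference of 1 left 100 higher and 206 lower genes, since that test asks for more than a difference from 0. Asking for detection on at least 2 arrays left 422 lower genes, since genes above background in R1 alone are then not tested. Leaving out 1 EpiSC line gave 504 (without T9) to 686 (without E5) higher and 626 (without T9) to 750 (without E5) lower genes. The naming rule selects 469 genes, of which 173 are described above. Of its 399 called genes, 277 kept their call under all alternatives except the test against a log2 difference of 1, and 122 lost it under at least 1 other. None of these genes changed direction while called. Of 96 list medians, 20 changed sign under some alternative, among them cytosolic ribosomal proteins, proteasome subunits and fatty acid genes, whose medians lay near 0. In simulated data with 200 of 9213 genes changed, 0% of differences of 1 log2 unit were recovered. The real data had 654 higher and 747 lower genes, which makes the adjustment less strict. The simulation therefore does not give the sensitivity of the real test. No paired analysis was possible because R1 was a single array with no partner among the EpiSC lines. A slide block was not run, since the files used here give no slide.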
